A study of Rattus norvegicus with 18 samples.

Results

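The Gadd45 family consists of 3 genes, Gadd45a, Gadd45b and Gadd45g, and all were measured here in cultured rat hippocampal neurons. Members were taken by gene symbol from the platform's probe annotation. Each symbol had 1 probe set, the platform's unit of several short probes for 1 transcript (1368947_at for Gadd45a, 1372016_at for Gadd45b and 1388792_at for Gadd45g), so 3 of the 31099 probe sets and 3 of the 14218 named genes are described. The 18 Affymetrix arrays fall into 6 groups of 3, which the labels call biological replicates without describing the cultures further. The p-values therefore measure the spread between these arrays, part of which may be technical. In the MEF2 RNAi arm, neurons carried lentiviral shRNAs against MEF2A and MEF2D and were sampled after 0, 1 or 6 h in 55 mM KCl. In the control arm, neurons carried control shRNAs and were sampled at the same times. Virus was added on day 3 of culture and KCl on day 10. In all 6 groups AP5, an NMDA receptor blocker, and TTX, a sodium channel blocker, were applied for 1 h beforehand, so the 0 h arrays come from silenced neurons. High KCl depolarizes the membrane and lets calcium in, and the study asked which activity-regulated genes MEF2 transcription factors control.

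Gadd45 proteins (growth arrest and DNA damage-inducible) are small acidic nuclear proteins without a known enzymatic activity that act by binding others. Known partners are the kinase MTK1 (gene Map3k4), which feeds the p38 and JNK stress pathways, the replication clamp PCNA, and the mitotic kinase Cdk1 with cyclin B1. Gadd45a is a p53 target induced by DNA damage, Gadd45b responds to TGF-beta and NF-kappaB signals, and Gadd45g was found as a cytokine response gene. In the mouse hippocampus Gadd45b is induced by neuronal activity and takes part in activity-dependent DNA demethylation, reported at Bdnf and Fgf1 regulatory regions.

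The promoters of the 3 genes are shown because 2 of the members, Gadd45b and Gadd45g, moved together in these data and the other did not. Each runs from 250 bases before to 50 bases after the annotated start on RefSeq's GRCr8 assembly, minus strand, and capitals mark matches to the motifs searched.
Gadd45a: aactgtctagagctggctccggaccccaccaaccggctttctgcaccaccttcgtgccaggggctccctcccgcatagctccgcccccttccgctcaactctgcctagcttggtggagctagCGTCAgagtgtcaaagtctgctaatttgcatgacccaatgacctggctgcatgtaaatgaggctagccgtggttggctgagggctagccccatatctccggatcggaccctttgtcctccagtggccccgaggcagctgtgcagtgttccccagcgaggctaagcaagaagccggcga
Gadd45b: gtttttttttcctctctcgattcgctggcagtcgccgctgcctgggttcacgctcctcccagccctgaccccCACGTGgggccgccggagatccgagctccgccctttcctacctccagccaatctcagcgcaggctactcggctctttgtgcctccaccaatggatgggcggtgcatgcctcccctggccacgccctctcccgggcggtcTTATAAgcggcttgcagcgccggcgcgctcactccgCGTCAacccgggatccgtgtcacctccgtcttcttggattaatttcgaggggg
Gadd45g: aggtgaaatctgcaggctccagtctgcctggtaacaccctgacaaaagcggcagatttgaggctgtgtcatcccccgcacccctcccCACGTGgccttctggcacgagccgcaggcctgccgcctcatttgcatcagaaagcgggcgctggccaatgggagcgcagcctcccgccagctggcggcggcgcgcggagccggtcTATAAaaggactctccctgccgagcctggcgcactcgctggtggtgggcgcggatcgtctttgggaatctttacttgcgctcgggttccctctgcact

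The Gadd45a window lies at chr4:97486750-97487049, the Gadd45b window at chr7:9430669-9430968 and the Gadd45g window at chr17:13530302-13530601. The start used for Gadd45b lies 273 bases inside the gene, counted from the 5′ end of its annotation. The E box CACGTG stood once in Gadd45b, at position -178 from the start, and once in Gadd45g, at position -163, and was not found in Gadd45a. This motif occurs in 6.42% of the 33469 promoters of the same length. The letters TATAA, searched after the 3 promoters had been read, occurred in Gadd45b at position -38 and in Gadd45g at position -48, not in Gadd45a, and in 26.2% of all promoters. In Gadd45b they overlap a match on the opposite strand at position -39. The short CRE TGACG, contained in the full site bound by CREB, was found on the opposite strand in Gadd45a at position -128 and in Gadd45b at position -3, against 21.2% of all promoters. Searched on both strands, the full CRE TGACGTCA, the AP-1 site TGANTCA, the Egr site GCGNGGGCG, the CArG box, the MEF2 element and the kappa B element had no match in any of the 3 windows. They occur in 1.83%, 7.33%, 4.98%, 1.64%, 3.29% and 7.51% of all promoters, in that order. All 3 windows were rich in CpG dinucleotides, the substrate of DNA methylation, with 14 in Gadd45a, 27 in Gadd45b and 24 in Gadd45g, against a median of 7 over all promoters. Their GC content was 60.3%, 64.3% and 64.3%, against a median of 51.7%.

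All 54 signals of the 3 genes, 182 to 3480 on the deposited linear scale, lay above the 40th percentile of their own array, which was 154 to 164. All 3 genes passed the filter on low values and were among the 10934 genes tested. A gene is said to have risen or fallen where limma's moderated test gave a Benjamini-Hochberg adjusted p under 0.05 over those genes. Differences are on the log2 scale with standard errors (SE) from that fit, and n is 3 arrays per group. The knockdown was checked first: Mef2a was at -1.61, -1.92 and -1.86 in the RNAi arm relative to control at 0, 1 and 6 h (SE 0.10; adjusted p = 1.17e-07, 2.12e-08 and 3.08e-08), and its 3 other probe sets were also lower at every time. Mef2d was at -0.52, -0.42 and -0.57 (adjusted p = 0.000283, 0.00138 and 0.000152), but its other probe set, at -0.14, 0.00 and -0.08, was not called. Mean Mef2c signals at 0, 1 and 6 h were 565, 522 and 864 in the RNAi arm and 635, 677 and 1060 in control. Mef2c was called lower over the average of times but at no single time. Mef2b was called different at no time and not over the average.

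**Figure D1:**
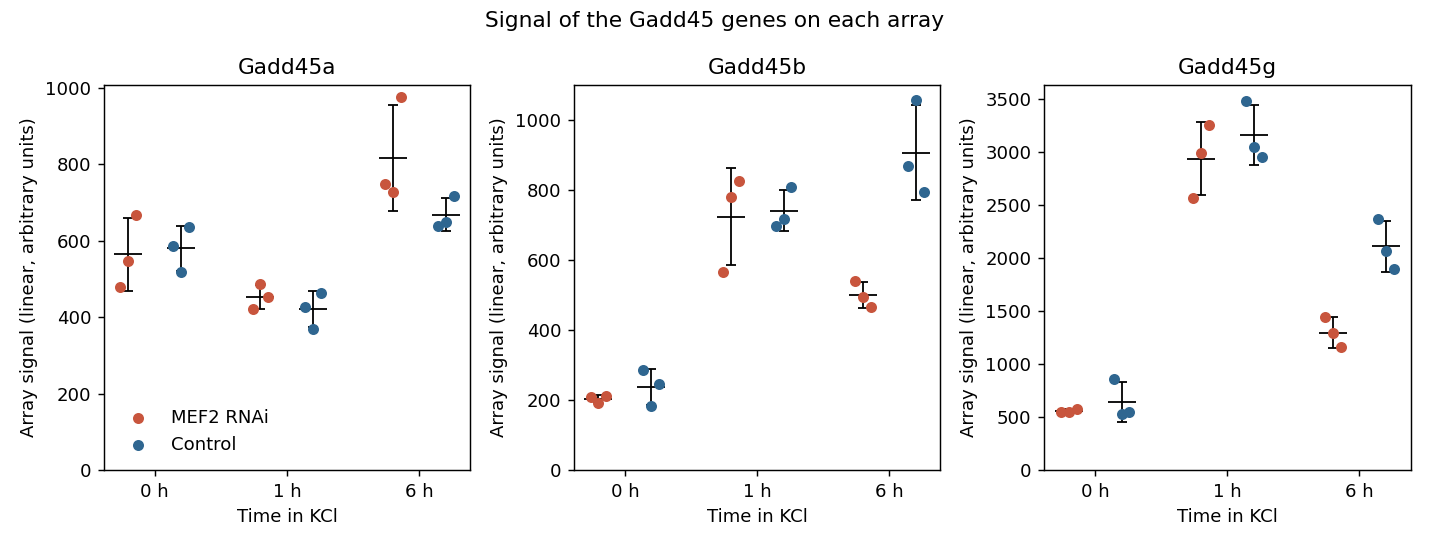
Linear array signal (arbitrary units) of Gadd45a, Gadd45b and Gadd45g at 0, 1 and 6 h of KCl, with MEF2 RNAi to the left of Control at each time. Points are arrays, and black bars are means with SD (n = 3). Gadd45b and Gadd45g are high at 1 h in both arms and are lower in all 3 RNAi arrays than in all 3 control arrays at 6 h.

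Gadd45g had the largest response of the family to 1 h of KCl. In the RNAi arm its signals were 546, 551 and 575 at 0 h, 2568, 2987 and 3251 at 1 h, and 1445, 1289 and 1158 at 6 h. Control arrays gave 857, 527 and 547 at 0 h, 3480, 3049 and 2954 at 1 h, and 2372, 2068 and 1892 at 6 h. The 1 h arrays were the highest in each arm, the 6 h arrays intermediate and the 0 h arrays the lowest, with no overlap between times within an arm. Among the 0 h arrays, control replicate 1 stood above the other 5.

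After 1 h of KCl, Gadd45g rose 5.24-fold in the RNAi arm (log2 2.39, SE 0.15; adjusted p = 7.94e-08) and 5.03-fold in the control arm (log2 2.33, SE 0.15; adjusted p = 1.04e-07). In the control arm this was rank 16 of the 10934 genes by size of rise. After 6 h it stood 2.32-fold above 0 h in the RNAi arm (log2 1.21; adjusted p = 1.21e-05) and 3.35-fold above 0 h in the control arm (log2 1.74; adjusted p = 2.86e-07). Between 1 h and 6 h it fell by 1.18 on the log2 scale in the RNAi arm (adjusted p = 2.85e-05) and fell by 0.59 in the control arm (adjusted p = 0.00678).

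Gadd45b had signals in the RNAi arm of 209, 192 and 211 at 0 h, 565, 781 and 825 at 1 h, and 540, 494 and 467 at 6 h. Control arrays gave 286, 182 and 246 at 0 h, 697, 717 and 809 at 1 h, and 869, 1056 and 794 at 6 h. Every array with KCl was above every 0 h array. At 6 h the 3 RNAi arrays lay below all 1 h arrays of their arm, whereas the 3 control arrays overlapped those of 1 h.

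Gadd45b rose 3.50-fold at 1 h in the RNAi arm (log2 1.81, SE 0.16; adjusted p = 2.68e-06) and 3.16-fold in the control arm (log2 1.66, SE 0.16; adjusted p = 6.72e-06), rank 24 of all genes in the control arm. At 6 h it was 2.45-fold above 0 h in the RNAi arm (log2 1.29; adjusted p = 8.88e-06) and 3.85-fold above 0 h in the control arm (log2 1.94; adjusted p = 1.36e-07). From 1 h to 6 h it fell by 0.52 on the log2 scale in the RNAi arm (adjusted p = 0.0200). That call was lost without RNAi 1 h replicate 2 or 3 or RNAi 6 h replicate 2 or 3, at adjusted p = 0.0786, 0.0963, 0.0534 and 0.0718 in that order. In the control arm the difference between 6 h and 1 h was 0.28 (95% interval -0.05 to 0.62; adjusted p = 0.188) and was not called.

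Gadd45a behaved differently from the other members. Its signals in the RNAi arm were 479, 547 and 667 at 0 h, 422, 486 and 452 at 1 h, and 747, 727 and 977 at 6 h. Control arrays gave 586, 518 and 637 at 0 h, 428, 370 and 463 at 1 h, and 639, 649 and 716 at 6 h. The 1 h arrays were the lowest in each arm, overlapping those of 0 h in the RNAi arm alone, and the 6 h arrays were the highest in each arm.

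The 1 h difference of Gadd45a from 0 h was -0.31 in the RNAi arm (95% interval -0.58 to -0.03; adjusted p = 0.262) and -0.47 in the control arm (95% interval -0.74 to -0.19; adjusted p = 0.0769). Neither was called. With replicate number as a term in the fit, the control-arm difference was called (adjusted p = 0.00614), and it was also called without RNAi 0 h replicate 3 or RNAi 6 h replicate 3 (adjusted p = 0.0499 and 0.0456). At 6 h Gadd45a rose 1.45-fold over 0 h in the RNAi arm (log2 0.53, SE 0.13; adjusted p = 0.00382). In the control arm it was at 0.21 (95% interval -0.07 to 0.49; adjusted p = 0.235) and was not called. It rose between 1 h and 6 h in both arms, 1.79-fold in the RNAi arm (adjusted p = 0.000150) and 1.59-fold in the control arm (adjusted p = 0.000797).

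Counted over the family, 2 of 3 members rose at 1 h in the RNAi arm, where 1.23% of all genes tested were called higher, and 2 of 3 in the control arm, where 1.19% were called higher and 2.7% in either direction. At 6 h against 0 h, 3 of 3 rose in the RNAi arm and 2 of 3 in the control arm, beside 14.7% and 16.1% of all genes called higher. In the control arm 25.5% of all genes were called lower at 6 h. From 1 h to 6 h in the RNAi arm, 1 member rose and 2 fell, beside 13.9% and 17.4% of all genes. In the control arm 1 rose and 1 fell, beside 15% and 20.4%. The number of all genes called in either direction at 1 h was 424 in the RNAi arm and 295 in the control arm, and with replicate number as a term it was 904 and 601. With that term Gadd45a was also called at 1 h in the control arm, as lower. The comparisons of 1 h and of 6 h with 0 h share the same 0 h arrays, so their values are given side by side and are not counted as separate support.

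**Figure D2:**
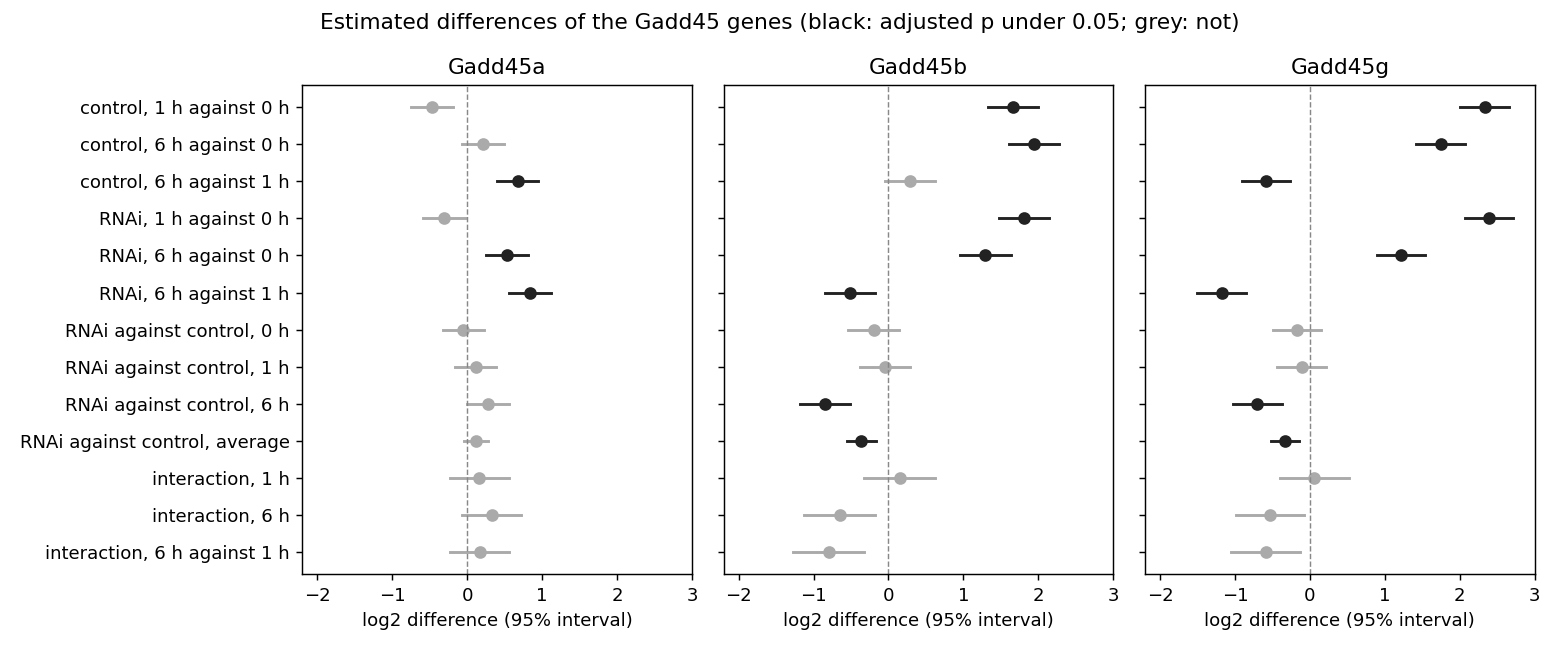
Fitted log2 differences (horizontal axis) of each Gadd45 gene in each comparison, with 95% intervals as lines. Black points have an adjusted p under 0.05 over all 10934 genes. KCl differences from 0 h are larger for Gadd45b and Gadd45g than for Gadd45a. From 1 h to 6 h Gadd45a differs more than Gadd45b in both arms. RNAi differences are called at 6 h and over the average of times for Gadd45b and Gadd45g.

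MEF2 knockdown went with lower Gadd45b and Gadd45g after 6 h of KCl. Mean Gadd45b signals at 6 h were 500.4 ± 36.9 in RNAi neurons and 906 ± 135 in control neurons (SD, n = 3 each). RNAi neurons thus held 55.5% of the control level (log2 -0.85, SE 0.16; adjusted p = 0.00176). Gadd45g averaged 1297 ± 144 in RNAi neurons and 2111 ± 243 in control neurons at 6 h (SD, n = 3 each). This was 61.5% of the control level (log2 -0.70, SE 0.15; adjusted p = 0.00507). For both genes every RNAi array was below every control array. The share of all genes so separated, here or between KCl times, was not counted. The direction and call of both genes held in all 26 alternative analyses, at adjusted p up to 0.0116 for Gadd45b and up to 0.0263 for Gadd45g. At 6 h 8.55% of all genes were called lower with RNAi and 8.67% higher, and by size of fall Gadd45b was at rank 61 and Gadd45g at rank 134 of 10934.

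Before KCl and after 1 h no member was called different between the arms. At 0 h the RNAi difference was -0.05 for Gadd45a, -0.20 for Gadd45b and -0.17 for Gadd45g (adjusted p = 0.850, 0.454 and 0.514), and the arrays of the arms overlapped. Without control 0 h replicate 1 these were -0.05 for Gadd45b and 0.0545 for Gadd45g, and without control 0 h replicate 2 they were -0.38 and -0.30. Of the 3 members 0 had an unadjusted p under 0.05 in limma's test, and 14.9% of all genes were called in either direction. At 1 h the differences were 0.11, -0.05 and -0.11 in the same gene order (adjusted p = 0.630, 0.882 and 0.692), again with overlap, 0 unadjusted p under 0.05 and 17.1% of all genes called. The 95% intervals at 1 h were -0.17 to 0.39 for Gadd45a, -0.39 to 0.28 for Gadd45b and -0.43 to 0.21 for Gadd45g.

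Gadd45a was not called at 6 h either, with a mean of 817 ± 139 in RNAi neurons and 668.3 ± 41.9 in control neurons (SD, n = 3 each; log2 0.28, SE 0.13; adjusted p = 0.169). All 3 RNAi arrays lay above all 3 control arrays, a separation that was likewise not counted over all genes. With replicate number as a term the difference was called (adjusted p = 0.0340). Without RNAi 6 h replicate 3 it was 0.14 (adjusted p = 0.537). Averaged over the 3 times, Gadd45b and Gadd45g were lower with RNAi (log2 -0.37 and -0.33; adjusted p = 0.00465 and 0.00787), beside 16.6% of all genes called lower and 20.9% called higher. Gadd45a was at 0.11 over that average (adjusted p = 0.261). With replicate number as a term, the number of all genes called in either direction at 0, 1 and 6 h was 2847, 3073 and 3084, against 1624, 1869 and 1883 without it.

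Whether the KCl response itself differed between arms was tested as an interaction, the RNAi-arm change minus the control-arm change. At 6 h against 0 h it was -0.65 for Gadd45b (SE 0.22, 95% interval -1.12 to -0.18; unadjusted p = 0.0104, adjusted p = 0.370) and -0.53 for Gadd45g (SE 0.22, 95% interval -0.99 to -0.07; unadjusted p = 0.0260, adjusted p = 0.502). Gadd45a was at 0.33 (adjusted p = 0.691). No member was called, and 0.119% of all genes were, 13 in number (126 with replicate number as a term, under which the members' adjusted p values were 0.192, 0.213 and 0.265 in the same order). At 1 h the interactions were 0.16 for Gadd45a, 0.15 for Gadd45b and 0.06 for Gadd45g, with 0 members at an unadjusted p under 0.05. At 1 h limma called 0% of all genes, although 363 genes had an unadjusted p under 0.05.

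A direct comparison, called for 0.0457% of all genes, of the RNAi difference at 6 h with that at 1 h was added after the data had been seen. It was -0.80 for Gadd45b (SE 0.22, 95% interval -1.27 to -0.32; unadjusted p = 0.00261, adjusted p = 0.319) and -0.59 for Gadd45g (SE 0.22, 95% interval -1.05 to -0.13; unadjusted p = 0.0148, adjusted p = 0.612). The knockdown difference was therefore called at 6 h and not at 1 h, while the change between these times did not pass adjustment over all genes. Gadd45a was at 0.17 (adjusted p = 1.00).

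**Figure D3:**
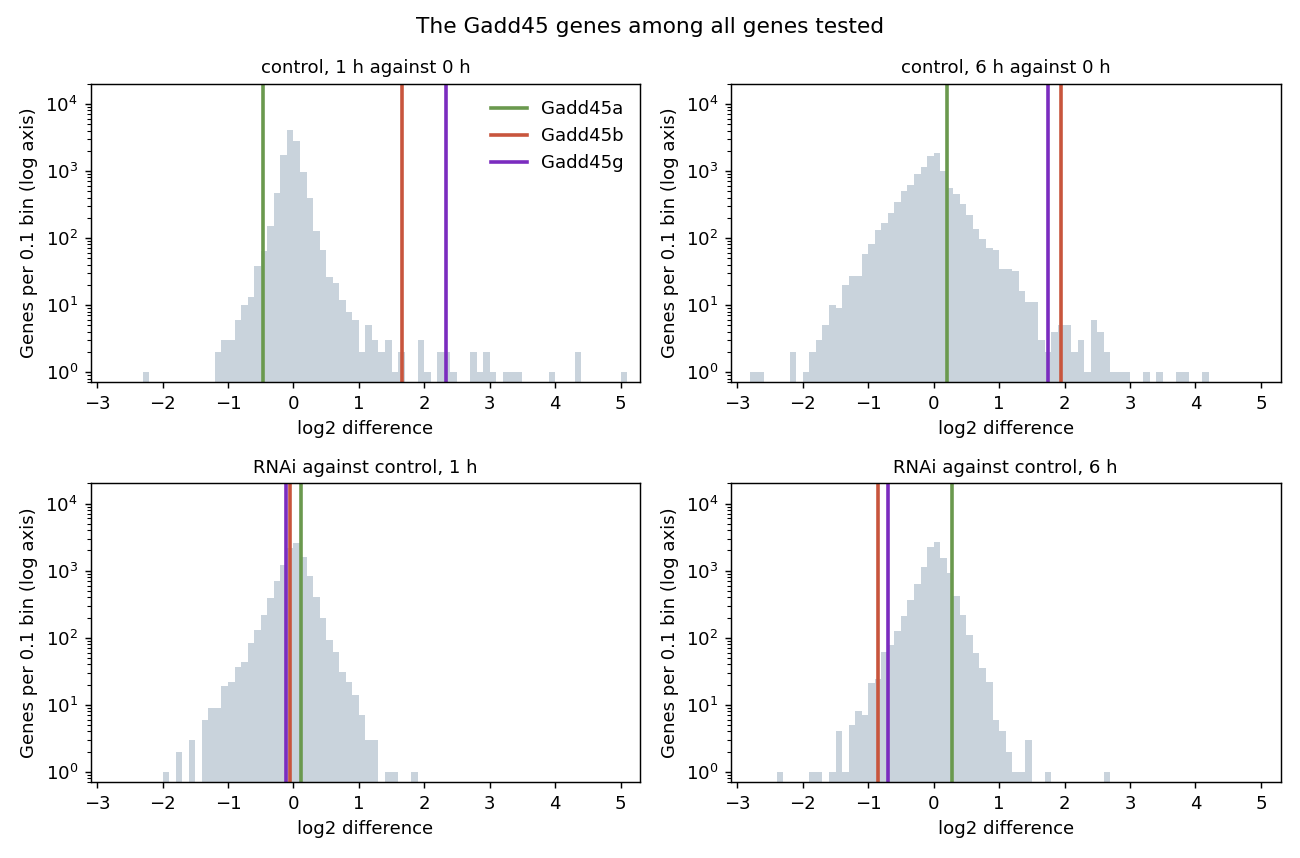
Number of genes per 0.1-wide bin of log2 difference (log vertical axis) for all 10934 genes in 4 comparisons, with vertical lines at the Gadd45 genes. Gadd45b and Gadd45g lie in the upper tail after KCl at 1 h and 6 h, near the centre for RNAi against control at 1 h and in the lower tail at 6 h.

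Ordered by mean signal, Gadd45a was highest in RNAi neurons at 6 h (817), followed by control 6 h (668), control 0 h (580), RNAi 0 h (564), RNAi 1 h (453) and control 1 h (420). The last 4 of these groups overlapped their neighbours. Gadd45b ran from control 6 h (906) through control 1 h (741), RNAi 1 h (724), RNAi 6 h (500) and control 0 h (238) to RNAi 0 h (204), and the first 3 groups overlapped in order, as did the last 2. Gadd45g ran from control 1 h (3161) through RNAi 1 h (2935), control 6 h (2111), RNAi 6 h (1297) and control 0 h (643) to RNAi 0 h (557), with overlap within the 1 h pair and within the 0 h pair.

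Unequal change of the members was tested on ratios within each array, which do not depend on the array's overall scale. Labels were permuted exactly within arms or times, two-sided, and p-values were adjusted over 9 tests. The permutations did not use replicate number, and no version with it was run. From 0 h to 1 h the log2 ratio of Gadd45b to Gadd45a changed by 2.12, with 2.11 in the RNAi arm and 2.13 in the control arm (exact permutation p = 0.005, the smallest that 400 arrangements allow; adjusted p = 0.0075). The ratio of Gadd45g to Gadd45a changed by 2.75 and that of Gadd45b to Gadd45g by -0.63 at the same p. Between 1 h and 6 h these 3 ratios changed by -0.87, -1.64 and 0.76, again at an exact permutation p = 0.005. Thus Gadd45g rose more than Gadd45b at 1 h and stood lower relative to Gadd45b at 6 h than at 1 h, by the signals of their probe sets. At 0 h Gadd45b signals were 182 to 286 and Gadd45g signals 527 to 857, and an effect of signal level on the ratios was not tested.

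For RNAi against control over the 3 times, Gadd45b fell by 0.48 on the log2 scale relative to Gadd45a (exact permutation p = 0.011 over 8000 arrangements; adjusted p = 0.0129). Gadd45g fell by 0.44 relative to Gadd45a (exact permutation p = 0.0115; adjusted p = 0.0129). In Gadd45b over Gadd45a the differences were -0.15, -0.16 and -1.13 at 0, 1 and 6 h, and in Gadd45g over Gadd45a they were -0.12, -0.22 and -0.98. The ratio of Gadd45b to Gadd45g differed by -0.04 (exact permutation p = 0.637).

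**Figure D4:**
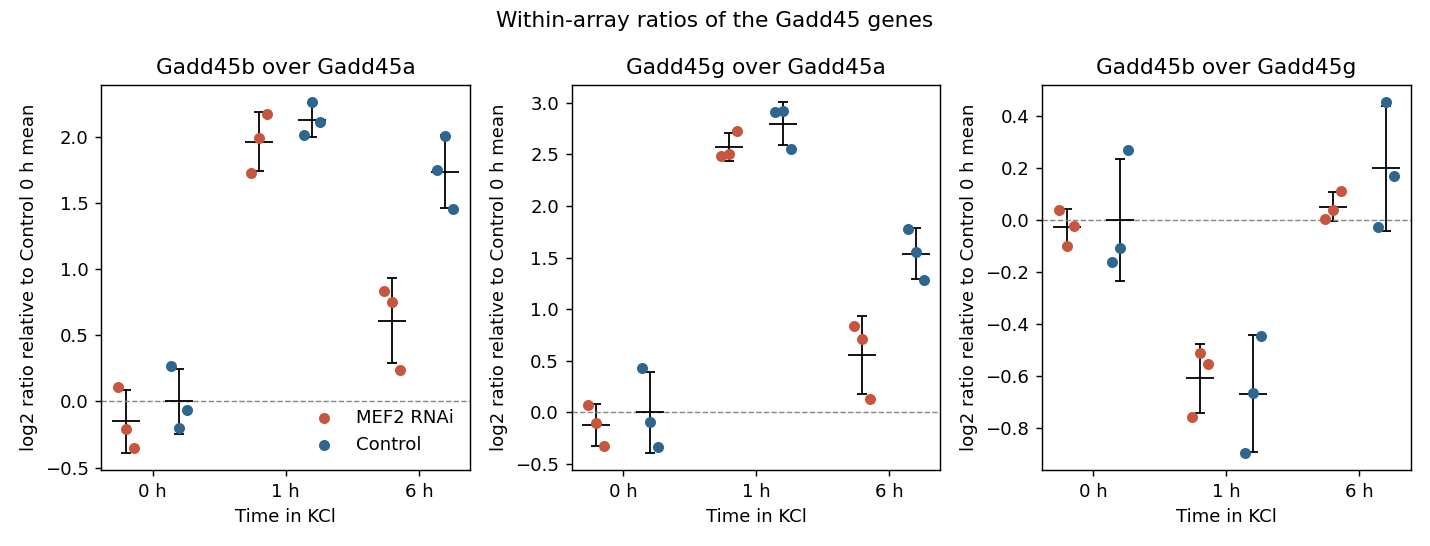
Within-array log2 ratios of pairs of Gadd45 genes, relative to the mean of Control at 0 h, by time in KCl, with MEF2 RNAi to the left of Control. Points are arrays and black bars are means with SD (n = 3). Both ratios over Gadd45a rise at 1 h in either arm and are lower in RNAi than in control arrays at 6 h, while Gadd45b over Gadd45g dips at 1 h.

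Among known transcriptional regulators of Gadd45 genes, 6 of 14 tested rose at 1 h in the control arm and 0 fell, beside 1.19% of all genes called higher, with a list median of 0.09 against -0.02 for all genes. They were the AP-1 subunits Jun (1.31) and Fos (4.30), the zinc-finger factor Egr1 (2.87), the bZIP factor Cebpb (0.95), the NF-kappaB inhibitor Nfkbia (0.62) and the stress response factor Atf4 (0.30). A second Fos probe set, at 0.08, was not called. At 6 h 9 of 14 rose and 0 fell, beside 16.1% and 25.5% of all genes, with Cebpb at 1.80, Fos at 3.79, Atf4 at 0.44 and Nfkb1, which encodes an NF-kappaB subunit, at 0.47. With RNAi at 6 h 1 of 14 was higher, Nfkbia at 0.43, and 1 lower, the forkhead factor gene Foxo3 at -0.35, beside 8.67% and 8.55% of all genes. The fit with replicate number as a term called 4, beside 3084 of all 10934 genes in either direction. With the mean of each gene's probe sets 1 was called.

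In the control arm the immediate early genes taken as comparators rose at 1 h in 9 of 9 cases, beside 1.19% of all genes called higher. They were listed as immediate early genes, so this count serves as a reference only. Their median was 3.02, and Gadd45g at 2.33 and Gadd45b at 1.66 were below it. At 6 h against 0 h their median was 2.02, against 1.94 for Gadd45b and 1.74 for Gadd45g. With RNAi at 6 h 3 of these 9 were lower, namely Arc (-0.92), Ier2 (-0.49) and the AP-1 subunit Junb (-0.33), beside 8.55% of all genes. The fit with replicate number called 6 of the 9, beside 3084 of all 10934 genes in either direction. The median of the 9 was -0.49, against 0.02 for all genes.

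A list of 7 stress-inducible genes, some of them named for growth arrest or DNA damage, was also read. At 1 h in the control arm 3 of 7 rose, beside 1.19% of all genes: Ppp1r15a, also known as Gadd34, which directs a phosphatase to the translation factor eIF2-alpha (2.09), the bZIP factor Atf3 (1.95) and the glutathione-degrading enzyme Chac1 (0.44). At 6 h 4 of 7 rose and 1 fell, beside 16.1% and 25.5% of all genes, with Chac1 at 1.52, Atf3 at 2.50, Ppp1r15a at 1.38 and the mTORC1 inhibitor gene Ddit4 at 0.32. With RNAi at 6 h Atf3 (-0.99; adjusted p = 0.00326) and Ddit4 (-0.37) were lower, and Ppp1r15a (0.63) and Ddit4l (0.61) were higher than in control, beside 8.55% and 8.67% of all genes. Without the filter on low values 2 of the 7 were called. Ppp1r15a was also called higher with RNAi at 0 h, beside 14.9% of all genes called in either direction.

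Of the p53 targets, the class to which Gadd45a belongs, 0 of 10 were called at 1 h in the control arm by limma, beside 2.7% of all genes, with 6 at an unadjusted p under 0.05 and a median of -0.16 against -0.02 for all genes. With replicate number as a term 1 was called, beside 601 of all 10934 genes in either direction. With the mean of each gene's probe sets 1 was also called. At 6 h the stress sensor gene Sesn2 rose (0.98) and the cell death gene Bbc3 (-0.68), Sesn1 (-0.51) and Phlda3 (-0.27) fell, beside 16.1% and 25.5% of all genes. With RNAi at 6 h 1 of 10 was called, the cyclin gene Ccng1 (0.85; adjusted p = 4.15e-06), beside 8.67% of all genes called higher. The fit with replicate number called 3, beside 3084 of all 10934 genes in either direction.

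The genes of the partner proteins were read in the same way. In the stress MAP kinase module limma called 0 of 7 at 1 h in the control arm, beside 2.7% of all genes, with 0 at an unadjusted p under 0.05, and at 6 h Map2k6, a kinase that activates p38, fell by 1.04, as 1 of 7 beside 25.5% of all genes. With replicate number as a term 2 of 7 were called at 6 h in control, and 2 with RNAi at 6 h, where the fit without it called 0 (1 at an unadjusted p under 0.05). Map3k4, the gene of MTK1, was at 0.12 at 1 h and 0.05 at 6 h and was not called. Among cell cycle and nuclear partners 0 of 6 were called at 1 h, also 0 unadjusted. With replicate number as a term 1 was called, beside 601 of all 10934 genes in either direction. At 6 h 1 of 6 was called, beside 25.5% of all genes called lower: Gadd45gip1, which encodes a Gadd45-interacting protein, fell by 0.22 (adjusted p = 0.0254). Pcna, at 0.06, was not called.

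Genes of DNA methylation and demethylation were not called at 1 h in the control arm (0 of 15 in limma, with 2 at an unadjusted p under 0.05, beside 2.7% of all genes), the time of the Gadd45g peak. At 6 h 3 of 15 rose and 6 fell, beside 16.1% and 25.5% of all genes, with a median of -0.08 against -0.02 for all genes. The methylcytosine dioxygenase genes split, Tet2 at 0.54 and Tet3 at 0.27 rising and Tet1 falling at -1.10. Ing1, whose protein binds histone H3 and recruits Gadd45a in human and mouse cells, rose by 0.82, and its other probe set rose by 0.64. The excision repair genes Ercc4 (-0.62), Xpa (-1.01) and Ercc5 (-0.41) fell. Of both reported Gadd45b demethylation targets, Bdnf was at 1.02 at 1 h and 3.42 at 6 h (adjusted p = 0.0016 and 1.15e-09). Its other probe set was at 0.23 and 1.22 and was called at 6 h alone. With RNAi at 6 h Bdnf was at -0.70 by both probe sets (adjusted p = 0.00838 for the brighter). Fgf1, at -0.05 at 1 h, was called at neither time.

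Some marker sums differed between the arms at 6 h. Only endothelial and fibroblast sums were also separate at 0 and 1 h. Summed signals of the 8 neuron markers at 6 h were 48863 to 53852 in RNAi arrays and 55451 to 58330 in control arrays. At 0 h they were 50514 to 55448 in RNAi and 54100 to 57309 in control arrays, with overlap. At 1 h they were 50184 to 56942 in RNAi and 56319 to 60088 in control arrays, also with overlap. Of these markers 1, the neurofilament gene Nefm, was called lower at 6 h (-1.06), beside 8.55% of all genes. In limma's test 4 of the 8 had an unadjusted p under 0.05, and the list median was -0.20 against 0.02 for all genes. Endothelial and fibroblast markers summed to 2411 to 2920 in RNAi arrays and 3360 to 3696 in control arrays at 6 h. Of the 5 tested, Dcn (-0.49) and Cldn5 (-0.97) were lower, again beside 8.55% of all genes. The same sums were 2036 to 2223 in RNAi arrays and 3061 to 3481 in control arrays at 0 h, and 1844 to 2241 and 2984 to 3906 at 1 h. Nefm and Dcn were also called lower at both earlier times, beside 14.9% and 17.1% of all genes called in either direction. At 6 h astrocyte markers summed to 38397 to 45322 in RNAi arrays and 32483 to 38890 in control arrays. Of these 0 of 7 were called by limma, beside 8.67% of all genes called higher, and 2 had an unadjusted p under 0.05. Microglia markers summed to 1558 to 1664 in RNAi arrays and 1499 to 1578 in control arrays, oligodendrocyte lineage markers to 8771 to 15812 and 8787 to 14304, and markers of dividing cells to 3250 to 7034 and 3084 to 7773 in the same order of arms. In limma 0 of 6, 0 of 5 and 0 of 6 tested markers were called, beside 8.55% of all genes called lower and 8.67% higher, and 0 had an unadjusted p under 0.05. Mog, Ptprc and Pecam1, defining markers of oligodendrocytes, leukocytes and endothelium, were at or below the floor on every array. Over the average of times 3 of 8 neuron markers were called lower (Nefm, Map2 and Tubb3) and 1 higher (Snap25). Of 7 astrocyte markers 4 were higher (Gja1, S100b, Gfap and Slc1a2) and 0 lower. Of 5 endothelial and fibroblast markers 2 were lower (Dcn and Cldn5) and 0 higher, and in the other lists 0 were called. Over that average 16.6% of all genes were called lower and 20.9% higher. The part of these markers in the Gadd45 differences was not tested, and in bulk RNA fewer cells of a type and less RNA per cell cannot be told apart.

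The genes most like each member were found by Pearson correlation of log2 signal over the 18 arrays. These arrays share 6 group means, so the values are a description. For Gadd45g they were the transcription factor gene Egr4 (0.980), the ADP-ribosyltransferase gene Tiparp (0.979) and the antiproliferative gene Btg1 (0.972). For Gadd45b they were the small Maf factor gene Maff (0.972), Sertad1, a regulator of cyclin D-dependent kinase (0.970), and Ifrd1 (0.966). Gadd45g was at 0.937 with Gadd45b, rank 5 of the genes compared with Gadd45b. For Gadd45a they were the mitochondrial cochaperone gene Grpel1 (0.920), the growth factor gene Fgf9 (0.907) and the homeobox factor gene Zhx2 (0.894), whereas Gadd45b and Gadd45g were at -0.11 and -0.37. Differences of RNAi from control at 6 h were -0.62 for Maff, -0.38 for Sertad1, -0.59 for Ifrd1, -1.14 for Egr4, -0.59 for Tiparp and -0.09 for Btg1. For the genes like Gadd45a they were 0.10 for Grpel1, 0.16 for Fgf9 and 0.17 for Zhx2. The 6 h arrays were among those used to pick all these genes, so their differences are not separate support.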

How the data were processed

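The deposited values are linear intensities, 1 for each probe set on each array. Per the labels, total RNA was extracted and biotin-labelled cRNA was hybridised to Affymetrix arrays, and the authors' combining of probes and normalizing arrays are steps not given in the sources used here. Array medians were 240 to 248, and no columns were left out. The table's 20th percentile, 72.6, served as a floor before log2 transformation. Each gene was represented by its brightest probe set with 1 symbol (20832 of 31099 probe sets). Genes above the 40th percentile of their array on at least 3 arrays were tested with limma 3.58.1 in R 4.3.3 on all 18 arrays with 1 mean per group (12 residual degrees of freedom), in 12 planned comparisons and 1 added. The fit and the permutation code were tested on simulated data. The number of arrays limits the precision.

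The titles give the same replicate numbers in every group. Deviations from the group means of same-numbered arrays correlated at 0.168 to 0.741, over 0.1 in 45 of 45 pairs, so the numbers were taken to pair the arrays. The main fit did not use replicate number, so its standard errors, intervals, p-values and calls leave this pairing out. Results of the fit with replicate number as a block are given where a member's call changed or a count moved by more than 1.5 times.

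The members, gene lists and tests were chosen with earlier results of these data known. Named genes are the members, the MEF2 genes, up to 4 called genes per list and comparison by smallest adjusted p, and the 3 genes most correlated with each member. Other list genes named were chosen after their values were seen. Alternatives changed the floor, the log scale, the normalization, the filter, the probe set summary, the variance model, the arrays fitted and the replicate block. Symbols come from the platform annotation and promoters from RefSeq. Protein sequences were not used here.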

Additional observations from a re-analysis of the deposited data

How the results depend on the processing

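Of the members' differences under the alternatives, 999 kept direction and call, 7 changed sign, 4 gained a call and 4 lost one. With replicate number as a block, 2 differences gained a call at the same value, Gadd45a in control at 1 h (-0.47) and with RNAi at 6 h (0.28), and no other member's call changed. The block gave 601 and 904 called genes for KCl at 1 h in control and RNAi, 2847, 3073 and 3084 for RNAi against control at 0, 1 and 6 h, and 126 and 77 for the interactions at 6 h against 0 h and against 1 h. Fitting the arrays of the compared groups alone gave 125 and 262 for KCl at 1 h in control and RNAi, 979 for RNAi at 0 h, and 2 and 3 for those interactions. Without the filter the last gave 12, against 5.

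Leaving out 1 array at a time, Gadd45a ranged from -0.54 to -0.38 in control at 1 h and from -0.18 to 0.0626 with RNAi at 0 h, and from 0.14 to 0.36 with RNAi at 6 h. Gadd45b ranged from -0.68 to -0.41 in RNAi between 1 h and 6 h, and from -0.38 to -0.05 and -0.15 to 0.12 with RNAi at 0 and 1 h. Gadd45g ranged from -0.30 to 0.0545 with RNAi at 0 h and from -0.16 to 0.19 in the 1 h interaction. The ratio of Gadd45b to Gadd45g with RNAi ranged from -0.0769 to 0.00611. Called genes ranged from 188 to 316 and from 220 to 467 for KCl at 1 h in control and RNAi, from 1207 to 2013 with RNAi at 6 h, and from 0 to 1, 1 to 15 and 1 to 9 for the interactions at 1 h, 6 h and 6 h against 1 h. The cause of these changes was not tested. All member signals lay above their array's 40th percentile.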

Other observations

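Averaged over the 3 times, single genes of DNA repair and of the p53 response differed between the arms. Tdg, the glycosylase that removes oxidised methylcytosine, was higher with RNAi (log2 0.55, SE 0.04; adjusted p = 8.28e-08). Of 15 genes of DNA methylation and demethylation, 7 were higher and 5 lower, beside 20.9% and 16.6% of all genes. Tet2 was at 0.22 and Tet3 at -0.20. The p53 target Ccng1 was higher with RNAi at every time, at 0.87, 0.83 and 0.85 at 0, 1 and 6 h. Of 10 p53 targets 3 were higher (Ccng1, Sesn2 and the cyclin-dependent kinase inhibitor gene Cdkn1a) and 1, Sesn1, was lower (-0.40). These genes were singled out after their values were seen.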
